A study of Homo sapiens with 6 samples.

Results

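Myc peaks were examined at the genes of the thioredoxin system: the thioredoxins TXN and TXN2, the thioredoxin reductases TXNRD1 and TXNRD2, and the peroxiredoxins PRDX1, PRDX2, PRDX3, PRDX4, PRDX5 and PRDX6. These 10 genes were taken by name, from 20163 protein-coding genes with an annotated transcription start site (TSS), because thioredoxin is the binding partner of TXNIP, the protein deleted in the study. The libraries are ChIP-seq (sequencing of immunoprecipitated chromatin) for Myc, made with the D3N8F antibody from MDA-MB-231, a human triple-negative breast cancer cell line. The parental cells were unedited, and the TKO cells carried a CRISPR-Cas9 knockout of TXNIP and came from clones grown out of single cells, so clone and genotype cannot be told apart. Both were grown in the same medium, with no treatment named in the labels, and each gave 2 Myc libraries, numbered as replicates, and an input chromatin sample as control. The question was whether Myc occupancy differs between the 2 cell lines, here at genes of the system that TXNIP binds.

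Thioredoxins are small proteins that reduce disulfide bonds in other proteins, and TXN acts in the cytosol and nucleus while TXN2 acts in mitochondria. Thioredoxin reductases, TXNRD1 in the cytosol and TXNRD2 in mitochondria, return oxidized thioredoxin to its reduced form with electrons from NADPH. Peroxiredoxins remove hydrogen peroxide and most of them depend on thioredoxin; PRDX3 is mitochondrial, PRDX4 is a protein of the endoplasmic reticulum and PRDX6 relies on glutathione instead. TXNIP binds the active site of reduced thioredoxin. Myc binds DNA as a dimer with Max, with the E-box CACGTG as its canonical site.

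The sequences that carry the E-boxes of 5 of these genes are shown first, since the peaks are described relative to them. Each line is read from the GRCh37 genome on the strand of the gene, 5′ to 3′, with the motif in capitals, and each motif lay within 50 bp of the summit of at least 1 Myc peak. The TXN windows lie at chr9:113017965-113018064, in an intron, and at chr9:113019160-113019259, upstream, both on the minus strand. The others lie at chrX:23685480-23685579 (plus strand, upstream of PRDX4), chr10:120938429-120938528 (minus, upstream of PRDX3), chr1:45987221-45987250 (minus, intron of PRDX1) and chr1:173447429-173447528 (plus, intron of PRDX6).
TXN intron: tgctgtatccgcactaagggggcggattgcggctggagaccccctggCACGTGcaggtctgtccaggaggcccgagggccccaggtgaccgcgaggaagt
TXN upstream: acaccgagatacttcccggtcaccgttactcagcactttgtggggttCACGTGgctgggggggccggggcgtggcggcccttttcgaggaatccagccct
PRDX4 upstream: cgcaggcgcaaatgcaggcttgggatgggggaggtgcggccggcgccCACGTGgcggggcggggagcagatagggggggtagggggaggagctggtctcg
PRDX3 upstream: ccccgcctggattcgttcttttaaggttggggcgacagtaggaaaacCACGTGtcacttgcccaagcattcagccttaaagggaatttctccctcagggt
PRDX1 intron: cggcaactcgagCACGTGgcgcggcgtctg
PRDX6 intron: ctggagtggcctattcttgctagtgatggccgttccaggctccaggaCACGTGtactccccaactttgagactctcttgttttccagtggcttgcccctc

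TXNRD2 also had a canonical E-box within 50 bp of a summit, and the remaining genes had none. TXNRD1 and PRDX2 had the noncanonical form CACGCG there, in an intron at chr12:104682553-104682652 (plus strand) and in the 5′ UTR at chr19:12912578-12912607 (minus strand). PRDX5 had the ETS motif CCGGAAGT, here on the opposite strand, at chr11:64085046-64085075 (plus strand). TXN2 had none of the 5 motifs searched, which also included the AP-1 sites TGACTCA and TGAGTCA and the core of the antioxidant response element, which is TGAC and GC with 3 bases between them, all on either strand. A match is a description of the sequence and does not show what is bound there.
TXNRD1 intron: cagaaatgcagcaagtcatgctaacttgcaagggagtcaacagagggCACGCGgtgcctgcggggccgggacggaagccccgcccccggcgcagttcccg
PRDX2 5′ UTR: agaacgcgggtcCACGCGtgtgatcgtccg
PRDX5 upstream: tccgctgcctcACTTCCGGggatgctcctc

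The 4 peak lists differ in length and depth. Parental replicates 1 and 2 held 3720 and 5719 peaks, and TKO replicates 1 and 2 held 27213 and 25887. The narrowest peak was 140 and 151 bp wide in the parental lists and 182 and 201 bp in the TKO lists, and was taken as the length to which reads had been extended. With that length and an assumed genome size, the deposited values gave depths of 26.4 and 22.2 M reads (parental) against 19.9 and 13.0 M reads (TKO), on which every value per M reads rests. Library differences of this kind cannot be told apart from the cell lines, and with 2 libraries against 2 the smallest two-sided p of an exact permutation test is 0.333.

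Every one of the 10 genes had a Myc peak in TKO cells, and 5 of them had one in parental cells. A gene was called when a peak summit lay within 5 kb of one of its TSSs. TXN, PRDX1, PRDX3, PRDX4 and PRDX5 were called in each of the 4 libraries, and TXN2, TXNRD1, TXNRD2, PRDX2 and PRDX6 in the TKO libraries alone. No member was called in only 1 library of a cell line. These calls count any peak in the window, including peaks nearer to the TSS of another gene. The main PRDX5 peak was nearer to the TSS of TRMT112 in every library. With such peaks left out, PRDX5 was called in neither parental library and, in TKO, in replicate 2 alone. Both reductases were among the genes with TKO peaks alone, and the cytosolic and mitochondrial thioredoxins fell in different classes.

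Read against all protein-coding genes, members were called often in both cell lines. In parental replicates 1 and 2, 5 and 5 of 10 members were called, against 13.9% and 15.5% of all protein-coding genes. In TKO replicates 1 and 2 it was 10 and 10 of 10, against 54.5% and 55.4%. A peak in all 4 libraries was found at 5 members and 10.9% of all genes, and a peak in both TKO and no parental library at 5 members and 32.4% of all genes. Members had a median of 2 TSSs, the same as all genes. The difference in the number of members was 5.00 (exact permutation p = 0.333).

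**Figure D1:**
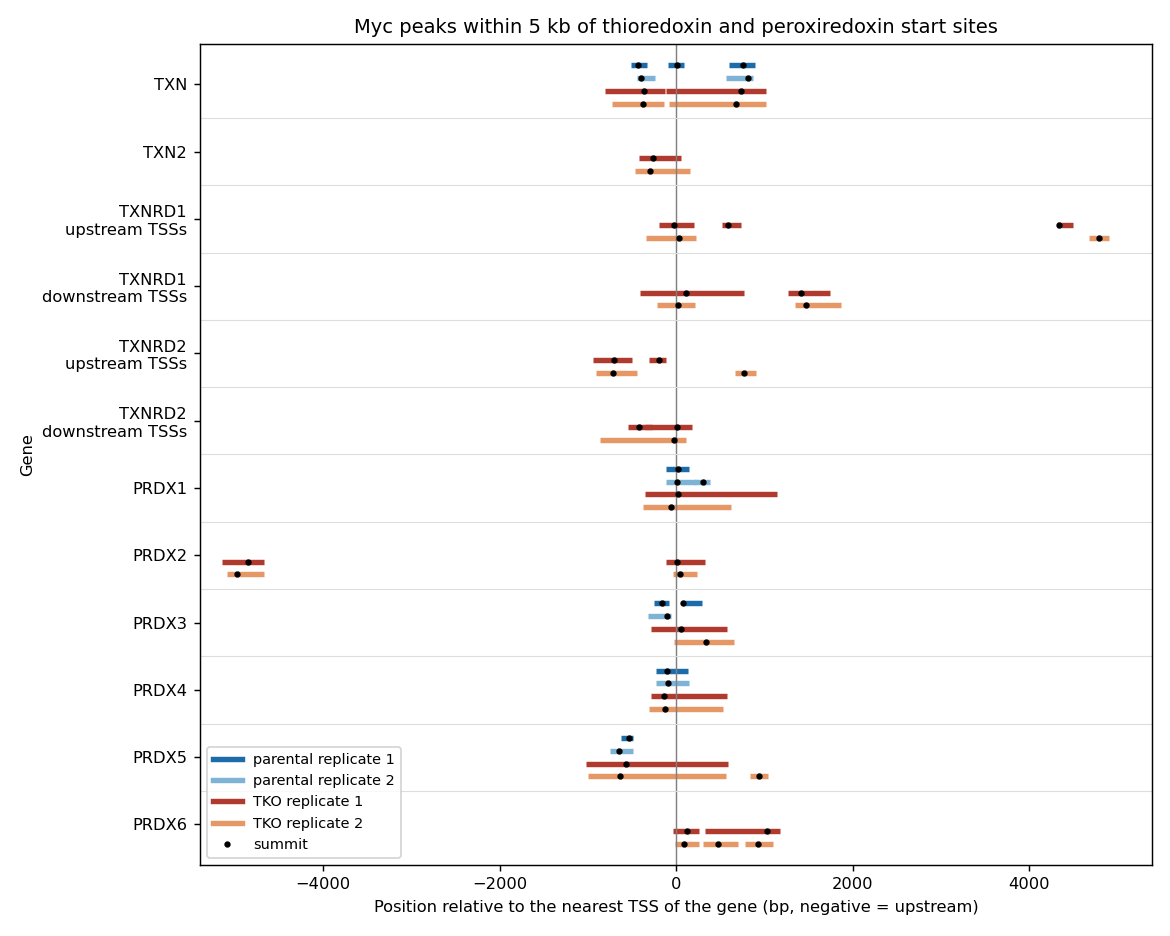
Myc peaks (bars) and summits (black points) of the 4 libraries for each gene, plotted by distance from the nearest TSS of that gene in bp; TXNRD1 and TXNRD2 have a row for each of their separated groups of TSSs. Bars of the parental libraries are present at TXN, PRDX1, PRDX3, PRDX4 and PRDX5, and TKO bars at every gene.

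The number of peaks depends on the length of the lists, so the strongest 3720 peaks of each list by the deposited fold were also compared. Parental replicate 1 keeps its whole list. The members called were then 4 in parental replicate 2, against 10.9% of all genes, 5 in TKO replicate 1, against 15.6%, and 4 in TKO replicate 2, against 16.1%. The mean difference between cell lines was 0. TXN, PRDX1 and PRDX4 were called in each of these lists. TXNRD2 was called in both TKO lists and PRDX6 in that of replicate 1, while PRDX3 was called only in the parental lists. PRDX5, at ranks 3120 and 4622 (parental) against 4712 and 8274 (TKO), was called in that of parental replicate 1 alone.

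In all, 8 and 7 peaks lay near members in parental cells and 20 and 20 in TKO, and the means had a ratio of 2.67 (two-sided exact permutation p = 0.333). Over all protein-coding genes the same ratio was 5.55. The ratio at members was 0.643 with lists of equal length, in the opposite direction. With such lists it was not computed over all protein-coding genes, so this reversal cannot be read as a trait of the members. Merged over the libraries, the peaks made 22 sites, of which 6 were called in all 4 libraries, 10 in both TKO libraries alone and 6 in 1 TKO library alone. No site was called in parental cells alone. Sites were not counted in this way over all protein-coding genes, and the TKO lists are longer. The site counts can therefore not be read as a trait of the members.

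TXN, which encodes cytosolic thioredoxin, had Myc peaks on either side of its TSS in each library. The upstream site (chromosome 9, 113018909 to 113019589) had its summit at an offset of -430 and -393 bp in parental replicates 1 and 2 and at -361 and -375 bp in TKO. The E-box printed above for this site lay 7, -30, -62 and -48 bp from those summits. Summit reads per M mapped reads (M for mega), the fragments stacked at the summit divided by library depth, were 1.44 and 1.85 (parental) against 3.16 and 4.37 (TKO). Both TKO values were above both parental values, as at the strongest peak of 98.1% of the 2190 protein-coding genes with a peak in all 4 libraries. The local background estimated from input was high at this site, between 5.66 and 7.61 times the genome average in the 4 libraries. Libraries of a cell line share an input sample, so their backgrounds are not independent. The fold divides by that background, and the site ranked at percentiles 8.25 and 50.8 by fold in the parental lists and 61.0 and 70.6 in the TKO lists.

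The other TXN site lay downstream of the TSS (chromosome 9, 113017729 to 113018857). In parental replicate 1 it held separate peaks at 7 and 758 bp, in replicate 2 a peak at 812 bp, and in TKO single wide peaks of 1128 and 1100 bp with summits at 737 and 679 bp. The intronic E-box was -27, -81, -6 and 52 bp from the summits that lay between 679 and 812 bp. Summit reads per M at the strongest peak of the site were 1.25 and 0.811 (parental) against 3.41 and 3.99 (TKO). The parental and TKO libraries did not overlap in these values, as at the strongest peak of 98.1% of the 2190 genes with a peak in all 4 libraries.

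TXN2, which encodes the mitochondrial thioredoxin, had a peak only in TKO cells (chromosome 22, 36877533 to 36878148). Its summit lay at -261 bp in replicate 1 and -291 bp in replicate 2. With 0.852 and 1.53 summit reads per M and percentiles of 35.8 and 71.3, it was the weakest member peak by reads in replicate 1 when each gene is represented by its strongest peak.

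TXNRD1, the cytosolic reductase, has start sites in 2 widely separated groups, and both had Myc peaks in TKO cells alone. At the upstream TSS the summit lay at -20 and 33 bp (chromosome 12, 104609220 to 104609779), with 1.35 and 1.76 summit reads per M. At the downstream TSSs it lay at 107 and 21 bp (chromosome 12, 104680416 to 104681593), with 2.26 and 1.92. A further intronic site lay at 1417 and 1473 bp (chromosome 12, 104682413 to 104683010), with 2.26 and 2.15, and holds the CACGCG printed above. These 3 sites were called in both TKO libraries, and 3 others at 592, 4344 and 4797 bp in 1 library each. A core of the antioxidant response element, the site of NRF2, lay within 50 bp of a TXNRD1 summit at the upstream TSS.

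TXNRD2, the mitochondrial reductase, also had peaks at separate groups of start sites in TKO cells alone. Its strongest peak had summits at -699 and -714 bp, within 16 bp of an E-box, and ranked at percentiles 86.7 and 85.9. At this peak summit reads per M were 1.5 and 1.69. At the internal TSSs the site at 13 and -22 bp (chromosome 22, 19868508 to 19869546) had 1.75 and 1.69 summit reads per M and no TSS of another gene within 5 kb.

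PRDX1, a cytosolic peroxiredoxin, had a wide Myc site over its TSS (chromosome 1, 45986462 to 45987982). Parental replicate 1 had a peak at 20 bp and parental replicate 2 peaks at 309 and 12 bp, and the TKO summits lay at 26 and -53 bp. At the strongest peak by fold, summit reads per M were 1.63 and 0.811 (parental) against 3.51 and 3.84 (TKO). At the TSS peak of parental replicate 2 the value was 1.17, so both TKO values were above every parental one. The same held at the strongest peak of 98.1% of the 2190 genes with a peak in all 4 libraries. The E-box of this gene lay 19 bp from the 309 bp summit of parental replicate 2 and at least 270 bp from every summit at the TSS. The TKO peaks, 1504 and 1001 bp wide, contained it.

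PRDX2, another cytosolic peroxiredoxin, was called in TKO cells alone. A peak at the TSS (chromosome 19, 12912279 to 12912717) had its summit at 9 and 43 bp and 1.25 and 1.46 summit reads per M. Both summits lay within 50 bp of the CACGCG of its 5′ UTR, and 291 and 325 bp from the TSS of THSD8. A further peak at -4857 and -4981 bp lay 73 and 197 bp from the TSS of RNASEH2A, a ribonuclease H subunit gene, with 1.35 and 1.38 summit reads per M. That distant peak was the stronger one by fold in replicate 1 and the weaker one in replicate 2.

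PRDX3, the mitochondrial peroxiredoxin, had its parental and TKO summits at different places in 1 site (chromosome 10, 120937663 to 120938640). The strongest peaks by fold in the parental lists had summits at -165 and -107 bp, 10 and -48 bp from the upstream E-box. Parental replicate 1 had a further peak at 82 bp. The TKO summits lay at 58 and 335 bp, inside the gene, and only the TKO replicate 1 peak still contained that E-box. The strongest peaks had summit reads per M of 0.908 and 0.947 (parental) against 2.56 and 2.22 (TKO).

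PRDX4, the peroxiredoxin of the endoplasmic reticulum, had the highest ranked peak by fold of the 10 genes in each library (chromosome X, 23685300 to 23686182). The percentiles were 98.1 and 97.1 (parental) against 97.7 and 96.2 (TKO), or ranks 71, 165, 630 and 977 counted from the strongest. The summit lay at -98 and -96 bp in parental cells, 17 and 15 bp from the E-box, and at -139 and -131 bp in TKO, 58 and 50 bp from it. Summit reads per M were 1.36 and 1.13 (parental) against 2.56 and 2.61 (TKO), so by reads PRDX4 was not the highest member in any library. The local background was low here, 1.15 and 1.15 times the genome average in the parental libraries against 1.64 and 1.64 in TKO. Over all peaks within 5 kb of a TSS the median was 2.72 to 3.49. The equal values within a cell line are not replicates, since its libraries share an input. The genes nearest to PRDX4 in their 4 percentiles were ANAPC10, ABCE1 and ENSG00000285713, among 2190 protein-coding genes with a peak in all 4 libraries. All 3 lay 1.97 percentile points from it, as the Euclidean distance over the 4 values. They have the same percentiles, 98.9, 97.1, 96.8 and 97.8, and adjoin at 1 promoter region.

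PRDX5, found in mitochondria, peroxisomes and the cytosol, had its main peak upstream in every library (chromosome 11, 64084571 to 64086182). The summits lay at -533 and -642 bp (parental) against -564 and -634 bp (TKO), between 1 and 79 bp from the TSS of TRMT112, an activator of methyltransferases. In summit reads per M the values were 1.17 and 1.22 (parental) against 3.36 and 3.22 (TKO). Percentiles by fold were 16.2 and 19.2 in the parental lists and 82.7 and 68.0 in the TKO lists. No CACGTG was found in any of its peaks.

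PRDX6 had peaks in TKO cells alone, at its TSS and in its intron. The TSS peak (chromosome 1, 173446439 to 173446737) had summits at 126 and 92 bp, in coding sequence, with 1.91 and 1.15 summit reads per M. The intronic site (chromosome 1, 173446780 to 173447655) had its summit at 1025 bp in replicate 1, 21 bp from the printed E-box. In replicate 2 it was split, with summits at 480 and 930 bp, the latter 74 bp from that E-box. Its strongest peak had 1.91 and 1.69 summit reads per M. PRDX6-AS1, an antisense RNA gene, has a TSS within 422 bp of each of these summits.

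**Figure D2:**
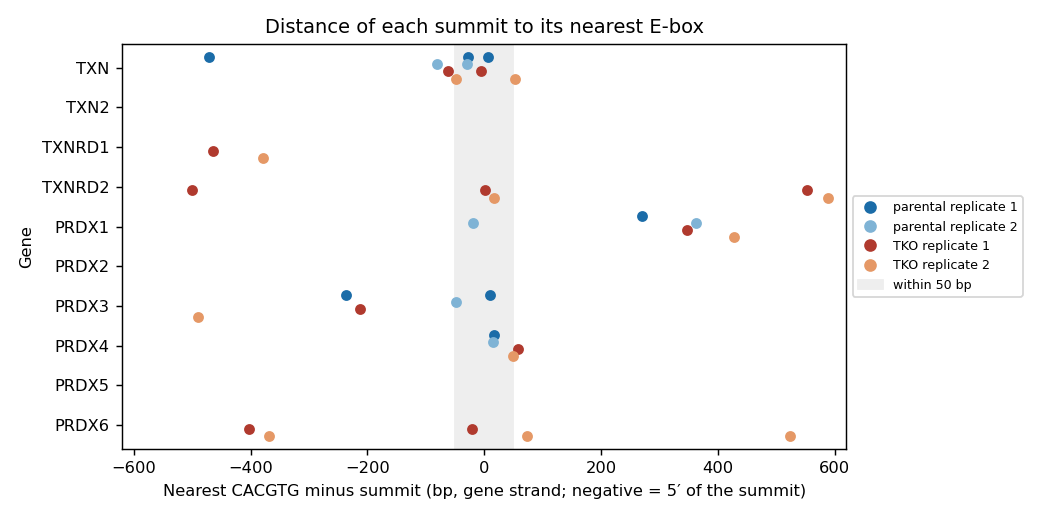
Distance in bp from the summit of each Myc peak to the centre of the nearest CACGTG, on the strand of the gene, for the distances shown on the axis; colours are libraries and grey marks 50 bp to either side. TXN, PRDX1, PRDX3 and PRDX4 have parental summits in the grey band, and TXN2, PRDX2 and PRDX5 have no point.

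The E-box lay close to the summit more often in the parental lists. It was whole within 50 bp of the summit at 4 of 8 and 4 of 7 parental member peaks, against 3 of 20 and 2 of 20 TKO ones. As shares these were 50.0% (95% Clopper-Pearson interval 15.7% to 84.3%) and 57.1% (18.4% to 90.1%) in parental replicates 1 and 2. In TKO they were 15.0% (3.21% to 37.9%) and 10.0% (1.23% to 31.7%). The difference was -41.1 percentage points (exact permutation p = 0.333), and -25.8 with lists of equal length. Over all peaks within 5 kb of a protein-coding TSS 22.4% and 18.4% (parental) against 8.48% and 7.34% (TKO) held it, in the same order as at the members. These intervals cover counting error only, and peaks of 1 gene share their site.

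The other motifs were rare at member summits. CACGCG was at none of the parental member peaks and at 3 of 20 in each TKO library (at TXNRD1 and PRDX2 and, in replicate 2, TXN), against 8.16% and 7.81% of all TKO peaks near a TSS. Of all parental peaks near a TSS 14.5% and 12.3% held it, a larger share than in TKO, and with 8 and 7 parental member peaks an absence was not distinguishable from those shares. The ETS motif was at 1 of 8 member peaks in parental replicate 1 and at 1 of 20 in TKO replicate 1, against 3.94% and 1.85% of all peaks near a TSS there. The antioxidant response element core was at 1 and 2 of 20 TKO member peaks, against 5.29% and 5.24% of all, and AP-1 at none in any library, against 2.72% to 4.41% of all.

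The strongest peak of each gene was then compared by summit reads in the 5 genes called in every library. Their median was 1.25 and 1.13 reads per M (parental) against 3.36 and 3.22 (TKO). The means had a ratio of 2.77 (exact permutation p = 0.333), and of 2.1 when reads were also divided by the extension length. At PRDX1 the mean was 1.22 ± 0.577 (SD, n = 2) in the parental and 3.67 ± 0.230 (SD, n = 2) in the TKO libraries, a ratio of 3.01. The ratio was 2.75 at PRDX5, 2.58 at PRDX3, 2.39 at TXN and 2.07 at PRDX4 (each exact permutation p = 0.333). TKO and parental libraries did not overlap at any of the 5 genes, as at 98.1% of the 2190 genes with a peak in all 4 libraries. The ratios of 2.77 and 2.1 rest on medians per library and were not computed over all genes. As a median of the ratios per gene, the value was 2.58 at the 5 members. Over the 2190 genes this median was 2.54, with quartiles of 2.22 and 2.85. PRDX4 lay below these quartiles. The values of PRDX1 and TXN depend on which peak is compared, because the strongest peak was not at the same place in every library. With the peak nearest to the TSS the ratio of PRDX1 was 2.62, inside the quartiles. For TXN it was 3.59 at the downstream site, above them, and 2.29 at the upstream site. The downstream ratio uses the peak of parental replicate 1 at 7 bp, with 1.25 reads per M. Its peak at 758 bp, closer to the other summits, had 0.946. These site by site ratios were added after the values were seen.

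**Figure D3:**
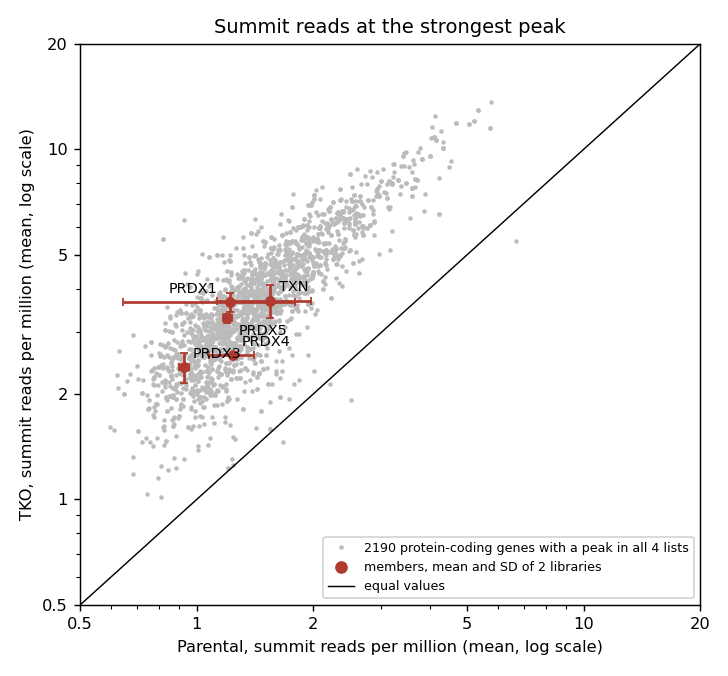
Mean summit reads per M of the strongest peak in parental (x, log scale) and TKO (y, log scale) libraries, with grey points for the 2190 genes with a peak in all 4 lists and red points with SD bars for the 5 members among them. The members sit inside the grey cloud and above the line of equal values.

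Members called in both cell lines had more summit reads in TKO than members called in TKO alone. In TKO replicate 1 the strongest peaks of the former had 2.56 to 3.51 reads per M and those of the latter 0.852 to 2.26. In replicate 2 the ranges were 2.22 to 3.99 and 1.46 to 1.76. A TXNRD1 peak weaker by fold had 2.15 reads per M in replicate 2. Between the strongest peaks of the members, the classes did not overlap by reads in either library. By percentile they did, at 82.7 to 97.7 against 35.8 to 87.3 in replicate 1. In replicate 2 the percentiles were 51.3 to 96.2 against 42.5 to 85.9. All protein-coding genes showed the same order by reads, with medians of 3.36 and 1.35 in replicate 1 and 3.76 and 1.61 in replicate 2. Over all genes the classes overlapped, at 0.602 to 11.7 against 0.451 to 7.27 reads per M in replicate 1. In replicate 2 the ranges were 0.920 to 15.6 and 0.614 to 8.28. The classes hold 5 members each, against 2190 and 6533 genes, and a range widens with the number of genes. The gap between the classes can therefore not be read as a trait of the members. Member peaks were also wider in the former class, at 854 to 1612 bp against 299 to 485 bp in replicate 1. In replicate 2 they were 691 to 1564 bp against 272 to 616 bp. All protein-coding genes showed the same order by width, with medians of 806 and 395 bp in replicate 1 and 772 and 411 bp in replicate 2. The weakest called peaks near a TSS had 0.492 and 0.496 reads per M in the parental lists, and their medians were 1.21 and 1.26.

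**Figure D4:**
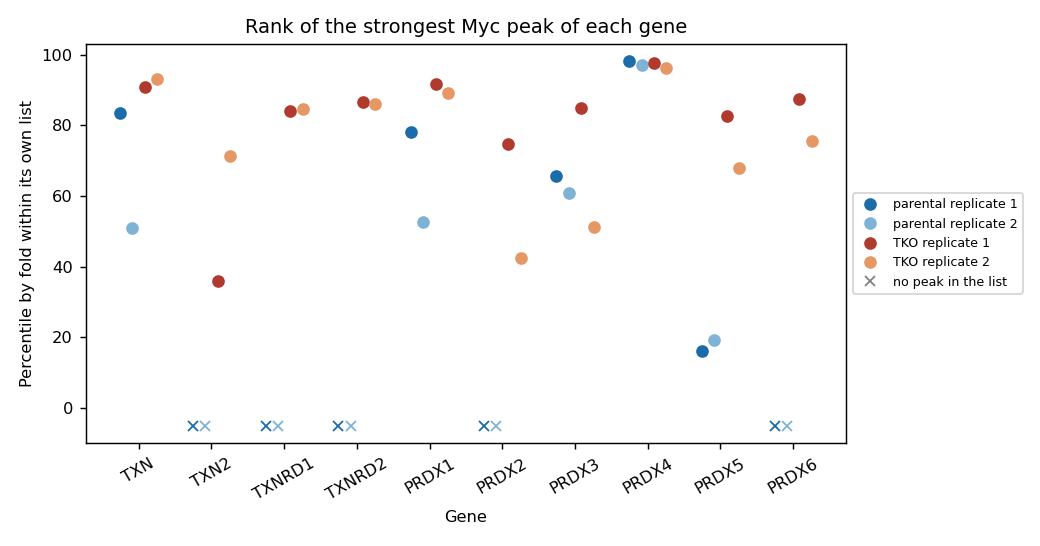
Percentile by deposited fold of the strongest peak of each gene within its own list (100 is the strongest peak of the list); crosses mark a list with no peak within 5 kb. PRDX4 lies above 96 in every library, and PRDX5 lies below 20 in the parental lists and at 82.7 and 68.0 in the TKO lists, which are longer.

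The median percentile over the 5 genes called in every library was 78.1 and 52.6 in the parental lists and 90.9 and 89.2 in the TKO lists, a difference of 24.7 (exact permutation p = 0.333). Over all 2190 protein-coding genes with a peak in every library, the median in the TKO lists was higher, at 94.9 and 94.5. It was not computed for the parental lists, so the difference of 24.7 has no value over all genes beside it. Without parental replicate 1 the difference at members was 37.5 and without parental replicate 2 it was 12.0. With lists of equal length the difference was -9.83, but over only 3 genes, TXN, PRDX1 and PRDX4. PRDX3 and PRDX5 drop out there, so the 2 differences do not cover the same genes. Percentiles depend on the length of the list, which differs between the cell lines.

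Other thiol redox genes were taken from a list of 46. Of these, 12 and 13 were called in parental replicates 1 and 2 and 40 and 39 in TKO replicates 1 and 2, where the shares of all protein-coding genes were 13.9%, 15.5%, 54.5% and 55.4%. In 8 genes a peak was found in every library, where the share of all genes was 10.9%, and 21 had peaks in both TKO libraries alone, where it was 32.4%. Of the others, 5 had none and 12 had another pattern. Among 12 further genes of the thioredoxin system, none was called in parental cells and 6 and 7 were called in TKO, a share near that of all genes. SRXN1, which repairs overoxidized peroxiredoxins, was among them (percentiles 71.7 and 75.9). The thioredoxin-domain and disulfide isomerase genes were called at 6 and 4 of 16 (parental) against 16 and 15 (TKO). For glutathione and glutaredoxin genes the numbers were 3 and 5 of 11 in parental cells and 11 and 10 in TKO, and for other antioxidant genes 3 and 4 of 7 and 7 and 7.

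No library had a peak near a TSS of TXNIP itself, and a peak list gives no check of its deletion. The genes called in every library were TXNDC5, TXNDC9 and PDIA4, which have thioredoxin domains, the glutaredoxins GLRX2 and GLRX5, the glutathione peroxidase GPX1, the superoxide dismutase SOD1, and NFE2L2, which encodes NRF2. The highest mean percentiles in the TKO lists were those of GPX1 (99.5 and 99.2), PDIA4 (96.0 and 97.3) and TXNDC12 (98.0 and 95.4), a thioredoxin-domain gene. Summit reads per M of GPX1 were 2.01 and 2.21 (parental) against 5.11 and 6.37 (TKO). At PDIA4 the values were 1.59 and 1.44 (parental) against 3.96 and 5.91 (TKO), and at TXNDC12 there was no peak in parental replicate 1, 1.04 in parental replicate 2 and 2.86 and 2.61 in TKO.

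**Figure D5:**
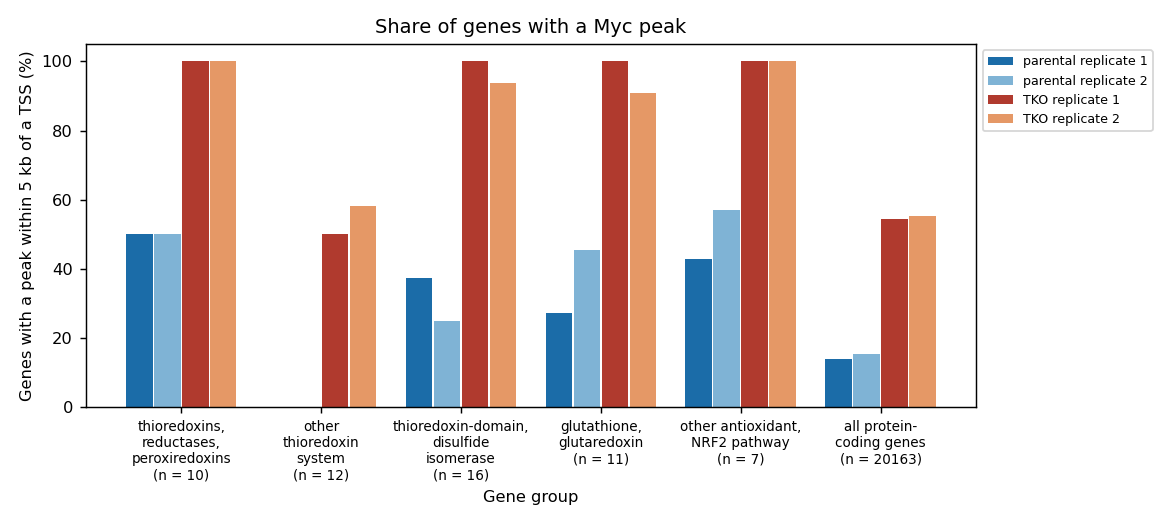
Percentage of genes in each group with a Myc peak summit within 5 kb of a TSS, as 1 bar per library; n is the number of genes in the group and the last group is all 20163 protein-coding genes. The 10 thioredoxin and peroxiredoxin genes reach 100% in both TKO libraries, and the other thioredoxin system genes have no parental bar.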

How the data were processed

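Single-end reads of 4 Myc libraries from MDA-MB-231 cells had been aligned by the authors to hg19 with Novoalign 3.08.02, and peaks had been called per library against input with MACS2 2.1.1.20160309, per the submitters' processing notes and the study's methods. How duplicate reads were handled is not given in the sources used here. The deposited lists hold a fold enrichment (the ratio of fragments at the summit to the background there), −log10 p-values, −log10 q-values and a whole-number score derived from the q-value. The lowest −log10 q-value was 2.03 to 2.07. The 2 input samples enter no comparison here. A withheld item beside 1 member is not reported here.

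Whole summit reads, local background and depth were solved from fold and p, assuming a genome size of 2700000000 bases and the narrowest peak as extension length. The solved values gave back the deposited −log10 p to within 0.002 at 100% of peaks; 1 of the member peaks, upstream of TXN in parental replicate 1, had 2 solutions, and the closer was taken. On simulated data of 1000 peaks per setting the known read numbers were recovered at 100% without scaling of the library and at 95.5% with it, and 0 of the 45 misses gave back its p. The simulated peaks did not include read numbers as low, or backgrounds as high, as at some member peaks. Recovery there was not simulated. Summits were compared with TSSs of basic transcripts in GENCODE v44 lifted to GRCh37, the build of the files, and genes encoded by mitochondrial DNA were left out. Percentiles are the share of a list's peaks with an equal or lower fold.

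The 4 libraries were grouped by sample title. Each cell line comparison used 1 value per library and a two-sided exact permutation test, which has 6 divisions of the libraries. This p is 0.333 whenever the values of the cell lines do not overlap, whatever the spread between the 2 libraries of a cell line. It covers these libraries only. The depth bounds precision through the summit reads, which were as few as 7 at a called peak. The members, the 46 further genes and the motifs were chosen with earlier results of these data known. All members were named, as were genes of the further list with a peak in every library, its 3 highest in TKO, the 3 genes most like the leading member, and genes with a TSS beside a member summit; SRXN1 was chosen after its values were seen. Alternatives were thresholds of 5 on −log10 q and on fold, lists of 3720 peaks, TSS windows of 1 and 10 kb, protein-coding transcripts, each library left out, a replicate block, ranking by p, extension length, a 100 bp motif window and strongest peaks only. Software was samtools 1.23.1, pysam 0.24.0 and Python 3.11.15 with scipy 1.17.1, numpy 2.4.6, matplotlib 3.10.9 and pandas 2.3.3.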

Additional observations from a re-analysis of the deposited data

How the results depend on the processing

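Of 65 recomputed values for the 5 comparisons at the members, 58 kept their direction and stayed within 1.5 times the reported value, 5 moved further and 2 reversed. The 58 include values that could not change. Every basic TSS of the members belongs to a protein-coding transcript, so the values with protein-coding transcripts only were fixed in advance. Those of a replicate block are also among the 58. With lists of equal length the difference in members called was 0 and the ratio of peaks near members was 0.643. The percentile difference was -9.83, over 3 genes, and the E-box difference was -25.8 percentage points. Equal length removes most TKO peaks by construction. With a fold of at least 5 the percentile difference was 41.4, over 4 genes. With libraries left out it ranged from 12.0 to 37.5, the ends being without parental replicate 2 and without parental replicate 1. The other comparisons ranged over 5.00 to 5.00 for members called, 2.5 to 2.86 for peaks near members, 2.63 to 2.92 for summit reads and -44.6 to -37.5 for the E-box with libraries left out. Leaving out peaks nearer to another gene's TSS, an alternative chosen after the data were seen, gave 5.50, 2.46, 22.5, 2.65 and -52.5 for members, peaks, percentile, summit reads and E-box. Fewer members were then called in each cell line, since PRDX5 was lost from the parental lists and from that of TKO replicate 1. The summit read ratio was 2.77 with the same site compared in every library, also chosen after the data were seen. It rests on 6 sites, with both TXN sites among them. The replicate numbers are not known to pair the libraries, and deviations from the cell line means correlated at 0.0725 between libraries of equal number, over 2190 genes. A replicate block left every value as it was, at 5.00, 2.67, 24.7, 2.77 and -41.1, and changed no call. For the differences in members, percentile and E-box this is so by construction, and the ratios could hardly differ. Its smallest exact p is 0.5. A gene with no peak in a list may lie under that list's threshold.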
